A study of Mus musculus with 7 samples.

Results

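The core loop of the circadian clock was examined in arthritic mouse ankles as 9 genes of the 27179 in the deposited table: the activators Arntl (also called Bmal1), Clock and Npas2, the period genes Per1, Per2 and Per3, the cryptochromes Cry1 and Cry2, and Ciart, a transcriptional repressor of the loop. The members were taken by name, each matched to a single row through its mouse Entrez number. They were chosen by name with the measured FPKM differences between mimic and control ankles already in view, that is, selected on the contrast of this study, so that difference is given below as a description, with no p-value for a member. Counts of members past a threshold stand beside the share over all genes, and nothing is read from them. All 9 passed the filter of a mean of at least 1 FPKM (reads scaled by exon length and by the assigned reads of the library).

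Whole ankles, stripped of skin, were profiled by RNA sequencing from DBA1 mice in which collagen-induced arthritis, an inflammatory joint disease raised by immunisation against collagen, was present. The mimic ankles had received an injection into the joint of a lipoplex, a lipid carrier, that carried miR-17-5p mimic, a synthetic copy of that microRNA (n = 4, mimic replicates 1, 2, 4 and 5). The control ankles had received the lipoplex with an irrelevant microRNA (n = 3, control replicates 2, 3 and 5). Arthritis, strain and carrier were therefore shared by both groups, and no ankle without arthritis or without an injection entered the comparison. The labels give neither the age of the mice nor the hour at which ankles were taken, nor do they tell if each ankle is from a different mouse, so p-values measure only the spread between these samples, and that spread may be partly technical.

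In mammals, CLOCK or its relative NPAS2 pairs with BMAL1, the product of Arntl, and the pair binds E-boxes in the promoters of the Per and Cry genes. The PER and CRY proteins accumulate, enter the nucleus and inhibit that pair, and CIART (also called CHRONO) inhibits it as well, which closes a loop of about a day. In many peripheral tissues Arntl and Npas2 messenger RNA therefore peaks at a different time of day from Per and Dbp messenger RNA. Per1 is also induced within a short time by glucocorticoids and by cAMP signalling, apart from the loop.

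The mimic itself is shown first, because it is the agent that separates the groups. Its seed, bases 2 to 8, is in capitals (RefSeq, GRCm38.p6, chromosome 14).
mmu-miR-17-5p: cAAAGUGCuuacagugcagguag
Matches to this seed were searched in the longest annotated 3′ UTR of each gene as the 8mer GCACTTTA and the 7mers GCACTTT and CACTTTA (GENCODE release M21). Among 12486 tested genes with such a UTR, 22.1% held at least 1 match and 4.25% held the 8mer. Of the 9 members, 3 held a match: Clock held 4 in a UTR of 6831 bases, Npas2 held 2 in 1229 bases and Cry2 held 1 in 2177 bases. The other 6 members held no such letters. A UTR of 6831 bases is far longer than the median of 1316 bases, and a match is a string of letters, not a measured site. The 8mers of Clock and Cry2 and both Npas2 matches are shown with the matching bases in capitals.
Clock, match from base 3841 of the 3′ UTR: aaaggtaataaGCACTTTAttgcaattatt
Npas2, match from base 527 of the 3′ UTR: aaataacttagGCACTTTcggagtttgtgt
Npas2, match from base 959 of the 3′ UTR: cttttcaggatGCACTTTgctttttttttt
Cry2, match from base 2075 of the 3′ UTR: gcaggcaagaaGCACTTTAcagagttccct

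Promoter windows from 250 bases before to 50 bases after an annotated start were in the RefSeq table for 8 of the 9 members, as 12 windows (GRCm38.p6). They were searched on both strands for the E-box CACGTG, the related E′-box CACGTT, the D-box TTATGNAA bound by the PAR bZIP factors, the half-site AGGTCA of the REV-ERB and ROR receptors, and the cAMP response element TGACGTCA. The 5 windows below were picked from those that held a match, and capitals mark every match on either strand. The Clock and Cry2 windows with a match are not shown. No match was found in the Npas2 window, in Clock windows 1 and 2, or in the other windows of Arntl and Per1. Per2 was the member without a window.
Ciart promoter, chr3:95882179-95882478, - strand: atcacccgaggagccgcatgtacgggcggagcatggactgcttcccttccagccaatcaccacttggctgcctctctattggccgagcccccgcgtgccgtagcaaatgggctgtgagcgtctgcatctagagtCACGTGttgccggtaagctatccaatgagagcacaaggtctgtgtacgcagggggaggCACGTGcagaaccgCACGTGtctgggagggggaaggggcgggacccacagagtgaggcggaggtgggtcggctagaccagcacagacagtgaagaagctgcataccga
Per3 promoter, chr4:151044616-151044915, - strand: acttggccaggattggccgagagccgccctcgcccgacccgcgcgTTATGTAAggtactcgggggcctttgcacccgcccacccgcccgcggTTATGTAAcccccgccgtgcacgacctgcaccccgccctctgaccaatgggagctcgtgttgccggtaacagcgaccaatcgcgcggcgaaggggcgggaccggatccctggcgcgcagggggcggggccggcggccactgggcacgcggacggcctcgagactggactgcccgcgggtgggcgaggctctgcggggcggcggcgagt
Per1 promoter, chr11:69098699-69098998, + strand: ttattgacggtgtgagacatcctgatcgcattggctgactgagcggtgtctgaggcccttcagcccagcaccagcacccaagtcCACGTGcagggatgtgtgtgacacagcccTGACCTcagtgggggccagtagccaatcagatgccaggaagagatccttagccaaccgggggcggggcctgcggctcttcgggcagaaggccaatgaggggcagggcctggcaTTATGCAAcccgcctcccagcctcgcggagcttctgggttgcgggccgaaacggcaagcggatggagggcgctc
Cry1 promoter, chr10:85185005-85185304, - strand: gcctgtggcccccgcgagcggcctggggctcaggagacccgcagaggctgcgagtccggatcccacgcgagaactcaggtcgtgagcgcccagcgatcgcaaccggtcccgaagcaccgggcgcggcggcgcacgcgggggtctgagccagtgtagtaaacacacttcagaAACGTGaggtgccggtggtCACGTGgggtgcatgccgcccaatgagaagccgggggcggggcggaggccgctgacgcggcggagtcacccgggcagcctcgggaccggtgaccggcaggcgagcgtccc
Arntl promoter, chr7:113207261-113207560, + strand: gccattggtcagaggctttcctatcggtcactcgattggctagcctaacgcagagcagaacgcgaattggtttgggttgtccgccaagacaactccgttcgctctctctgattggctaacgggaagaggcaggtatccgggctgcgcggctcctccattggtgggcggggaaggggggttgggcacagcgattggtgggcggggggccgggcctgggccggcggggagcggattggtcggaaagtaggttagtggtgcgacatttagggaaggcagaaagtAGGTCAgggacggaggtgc
The Ciart window held 3 E-boxes, which begin at positions -116, -58 and -44 from the start. The Per1 window shown held 1 E-box beginning at position -166, with 1 D-box and 1 half-site. Cry1 held 1 E-box beginning at position -60, with 1 E′-box. The Per3 window held 2 D-boxes and no E-box, and the Arntl window shown held 1 half-site. Of all 32851 windows in the table, 7.15% held an E-box, 4.68% an E′-box, 3.38% a D-box, 16.3% a half-site and 1.79% a cAMP response element. Among the windows of tested genes, to which all members belong, the shares were 9.68% for the E-box, 5.28% for the E′-box, 1.97% for the D-box, 12.4% for the half-site and 2.81% for the cAMP response element. Of the member windows, 3 of 12 held an E-box, 2 an E′-box, 2 a D-box, 3 a half-site and 0 a cAMP response element, and no matches overlapped.

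The 7 libraries held between 27465276 and 31118975 assigned reads. Control replicate 5 stood apart in keratinocyte genes: the 4 keratins listed summed to between 1.23 and 1.6 FPKM in mimic ankles, against 1.11, 1.02 and 76.3 FPKM in control replicates 2, 3 and 5, and Krt5 and Krt14 were at 0 in some of the other libraries. Control replicate 2 lay within the range of the mimic ankles for all members but Per3 and Ciart. Group differences are therefore also given without each of these libraries. Joint tissue was present in every library: Prg4, the lubricin gene, and 5 other synovial fibroblast markers summed to between 1116 and 1449 FPKM in mimic ankles and between 1174 and 1909 FPKM in control ankles.

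The activators had lower means in mimic ankles than in control ankles, and the period genes, the cryptochromes and Ciart had higher means. The largest mean differences were those of Per2 and Per3, at 2.05-fold and 2.10-fold higher in mimic ankles. Of the 13418 genes tested with limma, 0 had an adjusted p under 0.05, a background share of 0%, and the members were among them. Without adjustment, 2356 genes had p under 0.05 with limma and 2365 had so with limma-voom, which also called 0. Every mimic library lay above every control library for 2 members, Per3 and Ciart, where 6.48% of all tested genes did so, and no member had every mimic library below every control library, where 8.84% of genes did. Counted by their means, 6 of 9 members were higher in mimic ankles, against 48.3% of all tested genes, and the median log2 fold change of the 9 was 0.25, against -0.0063 over all genes.

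**Figure D1:**
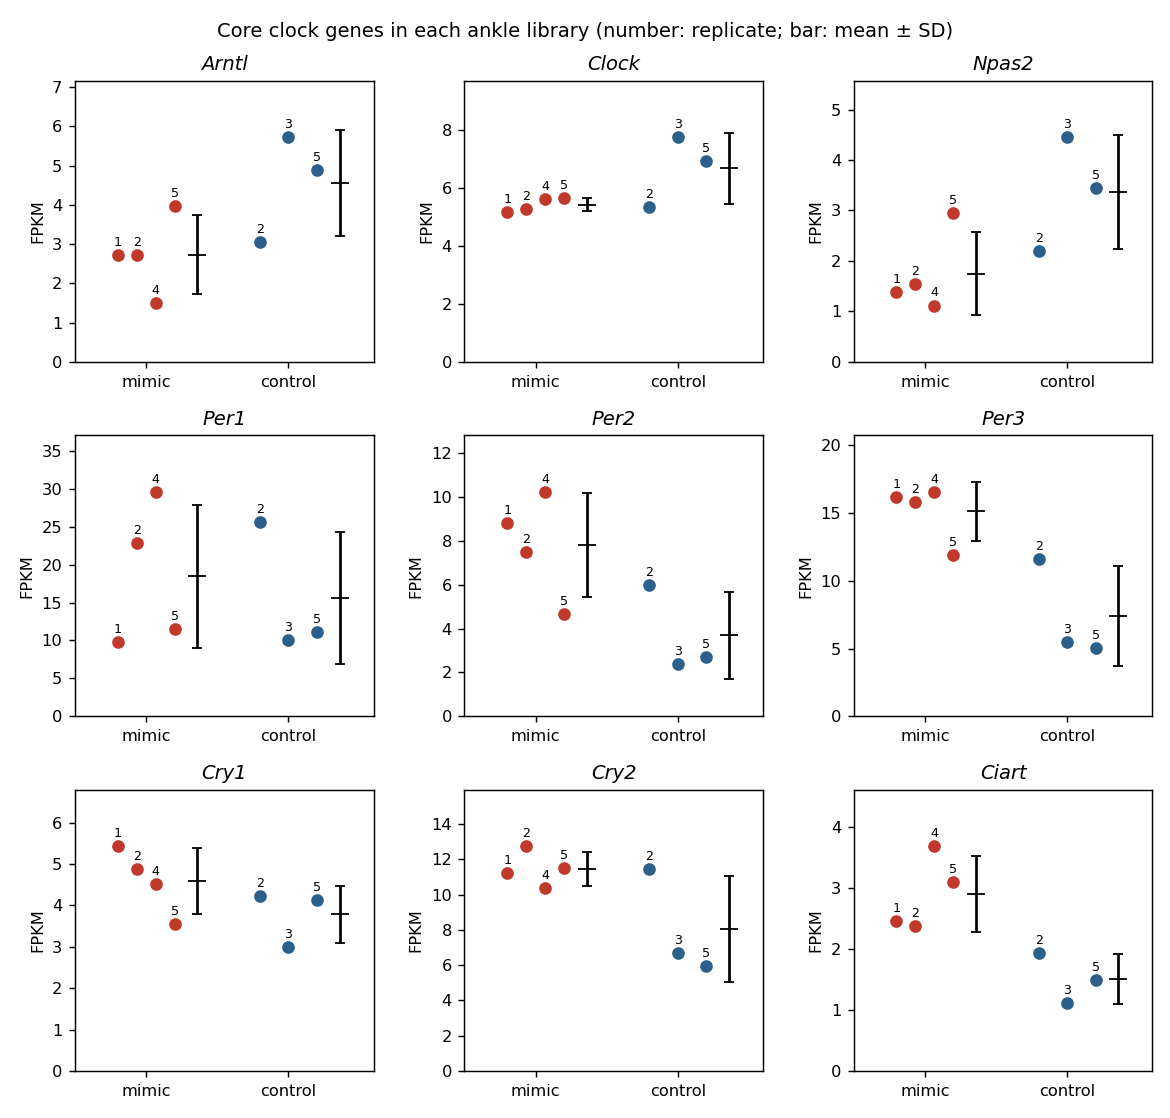
FPKM of the 9 core clock genes in each library, on a linear axis from 0, with mimic ankles (red, n = 4) left of control ankles (blue, n = 3), replicate numbers beside the points and black bars for mean ± SD. Control replicate 2 lies near the mimic ankles for Per3 (11.6 FPKM) and Cry2 (11.5 FPKM), and the groups do not overlap for Per3 and Ciart.

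Arntl (mm10 chromosome 7, 113207465 to 113314126), which encodes the obligate partner of the activator pair, stood at 2.73, 2.72, 1.51 and 3.98 FPKM in mimic replicates 1, 2, 4 and 5, against 3.06, 5.72 and 4.89 FPKM in control replicates 2, 3 and 5. The means were 2.74 ± 1.0 FPKM in mimic ankles (SD, n = 4) and 4.56 ± 1.36 FPKM in control ankles (SD, n = 3), a log2 fold change of -0.66 (SE 0.29). Control replicates 3 and 5 were the 2 highest libraries and mimic replicate 4 the lowest, while mimic replicate 5 lay above control replicate 2, so the groups overlapped. All fold changes are on the log2(FPKM + 0.5) scale, which understates the change of genes as low as this one. In a bulk sample, fewer cells of a type and less RNA per cell cannot be told apart.

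Npas2 (chromosome 1, 39194272 to 39363240), which can take the place of Clock in the activator pair, stood at 1.39, 1.54, 1.12 and 2.96 FPKM in mimic replicates 1, 2, 4 and 5, against 2.20, 4.45 and 3.45 FPKM in control replicates 2, 3 and 5. Its libraries took the same order as those of Arntl except that mimic replicates 1 and 2 changed places, and the groups overlapped at mimic replicate 5 and control replicate 2. The log2 fold change was -0.80 (SE 0.30). The ratio of Npas2 to Arntl in FPKM stayed between 0.51 and 0.78 in the 7 libraries, at 0.64 ± 0.12 in mimic ankles and 0.73 ± 0.038 in control ankles.

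Clock (chromosome 5, 76212177 to 76304548), the histone acetyltransferase subunit of the pair, varied least of the 9, by 1.5-fold between its highest and lowest library. It stood at 5.18, 5.28, 5.61 and 5.64 FPKM in mimic replicates 1, 2, 4 and 5, against 5.36, 7.75 and 6.94 FPKM in control replicates 2, 3 and 5. The 4 mimic ankles and control replicate 2 lay close together and control replicates 3 and 5 lay above them. The log2 fold change was -0.26 (SE 0.12), and -0.16 without control replicate 3.

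Per3 (chromosome 4, 151003655 to 151044622), a period gene with a strong daily rhythm in many tissues, stood at 16.2, 15.8, 16.6 and 11.9 FPKM in mimic replicates 1, 2, 4 and 5, against 11.6, 5.51 and 5.02 FPKM in control replicates 2, 3 and 5. The groups did not overlap, but mimic replicate 5 and control replicate 2 were nearly equal: their counting intervals (exact Poisson, 95%) were 11.4 to 12.4 FPKM and 11.1 to 12.1 FPKM. These intervals cover counting error alone. The means were 15.1 ± 2.18 FPKM in mimic ankles and 7.39 ± 3.68 FPKM in control ankles, a log2 fold change of 1.07 (SE 0.27).

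Per2 (chromosome 1, 91415982 to 91459328), a main inhibitor of the activator pair together with the cryptochromes, stood at 8.81, 7.49, 10.2 and 4.68 FPKM in mimic replicates 1, 2, 4 and 5, against 5.97, 2.38 and 2.71 FPKM in control replicates 2, 3 and 5. The highest to the lowest library spanned 4.30-fold, the widest of the 9 members. Control replicate 2 lay above mimic replicate 5, so the groups overlapped. The log2 fold change was 1.04 (SE 0.34), and Per2 kept close to Per3 in every library, at a ratio of 0.51 ± 0.095 in mimic ankles and 0.49 ± 0.057 in control ankles.

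Per1 (chromosome 11, 69098956 to 69109960), a period gene that also answers hormonal and neural stimuli, did not follow the other period genes. It stood at 9.82, 22.9, 29.6 and 11.5 FPKM in mimic replicates 1, 2, 4 and 5, against 25.6, 10.0 and 11.1 FPKM in control replicates 2, 3 and 5. Mimic replicates 2 and 4 and control replicate 2 were high, and the other 4 libraries lay between 9.82 and 11.5 FPKM. The log2 fold change was 0.22 (SE 0.46), with means of 18.5 ± 9.41 FPKM in mimic ankles and 15.6 ± 8.68 FPKM in control ankles. Its sign turned when single libraries were left out, to -0.020 without control replicate 3 and -0.048 without mimic replicate 4, and it was 0.63 without control replicate 2. The ratio of Per1 to Per3 was 0.61, 1.45, 1.79 and 0.97 in mimic replicates 1, 2, 4 and 5, against 2.20, 1.82 and 2.22 in control replicates 2, 3 and 5. These did not overlap, but mimic replicate 4 and control replicate 3 nearly met.

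Cry2 (chromosome 2, 92403646 to 92434069), one of the pair of cryptochromes that block the activators directly, stood at 11.2, 12.8, 10.4 and 11.5 FPKM in mimic replicates 1, 2, 4 and 5, against 11.5, 6.68 and 5.95 FPKM in control replicates 2, 3 and 5. The mimic ankles and control replicate 2 formed a narrow band, and control replicates 3 and 5 lay far below it. The log2 fold change was 0.54 (SE 0.20). Exons of Cry2 share 149 bases with D930015M05Rik on the opposite strand, whose reads cannot be told apart without a strand setting, and no other member shared exonic bases with another gene of the table.

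Cry1 (chromosome 10, 85131700 to 85185054), the other cryptochrome, stood at 5.43, 4.87, 4.52 and 3.54 FPKM in mimic replicates 1, 2, 4 and 5, against 4.23, 2.99 and 4.13 FPKM in control replicates 2, 3 and 5. The groups overlapped, and mimic replicate 5 lay below control replicates 2 and 5. The log2 fold change was 0.25 (SE 0.16), and 0.11 without control replicate 3.

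Ciart (chromosome 3, 95878505 to 95882228) had the lowest mean of the 9 genes over the 7 libraries, with between 43 and 151 reads per library, although it lay above Npas2 in all 4 mimic ankles. It stood at 2.46, 2.37, 3.69 and 3.11 FPKM in mimic replicates 1, 2, 4 and 5, against 1.94, 1.12 and 1.49 FPKM in control replicates 2, 3 and 5. Every mimic library lay above every control library, but the counting interval of mimic replicate 2 (1.94 to 2.88 FPKM) overlapped that of control replicate 2 (1.54 to 2.42 FPKM). The means were 2.91 ± 0.62 FPKM in mimic ankles and 1.52 ± 0.41 FPKM in control ankles, a log2 fold change of 0.76 (SE 0.19).

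Ranked by the mean over the 7 libraries, the members stood in the order Per1 (17.2 FPKM), Per3 (11.8), Cry2 (10.0), Per2 (6.04), Clock (5.97), Cry1 (4.25), Arntl (3.52), Npas2 (2.44) and Ciart (2.31). FPKM is per length, so these levels can be set side by side, but the ranges over libraries of each gene and the next in this order overlapped in all 8 cases. The order also depended on the group: Per2 stood above Clock in mimic ankles (7.80 and 5.43 FPKM) and below it in control ankles (3.69 and 6.68 FPKM). Ciart stood above Arntl and Npas2 in mimic ankles (2.91, 2.74 and 1.75 FPKM) and below both in control ankles (1.52, 4.56 and 3.37 FPKM), and Per3 stood above Cry2 in mimic ankles (15.1 and 11.5 FPKM) and below it in control ankles (7.39 and 8.04 FPKM). The spread within the control group was wide for most of them: the SD of log2(FPKM + 0.5) over the control ankles was 0.62 for Per3, 0.63 for Per2, 0.48 for Cry2 and 0.42 for Arntl, against a median of 0.13 over all tested genes. In mimic ankles the SD was 0.22 for Per3, 0.45 for Per2, 0.12 for Cry2 and 0.47 for Arntl, against a median of 0.11. For Per1 it was 0.74 in mimic ankles and 0.72 in control ankles.

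**Figure D2:**
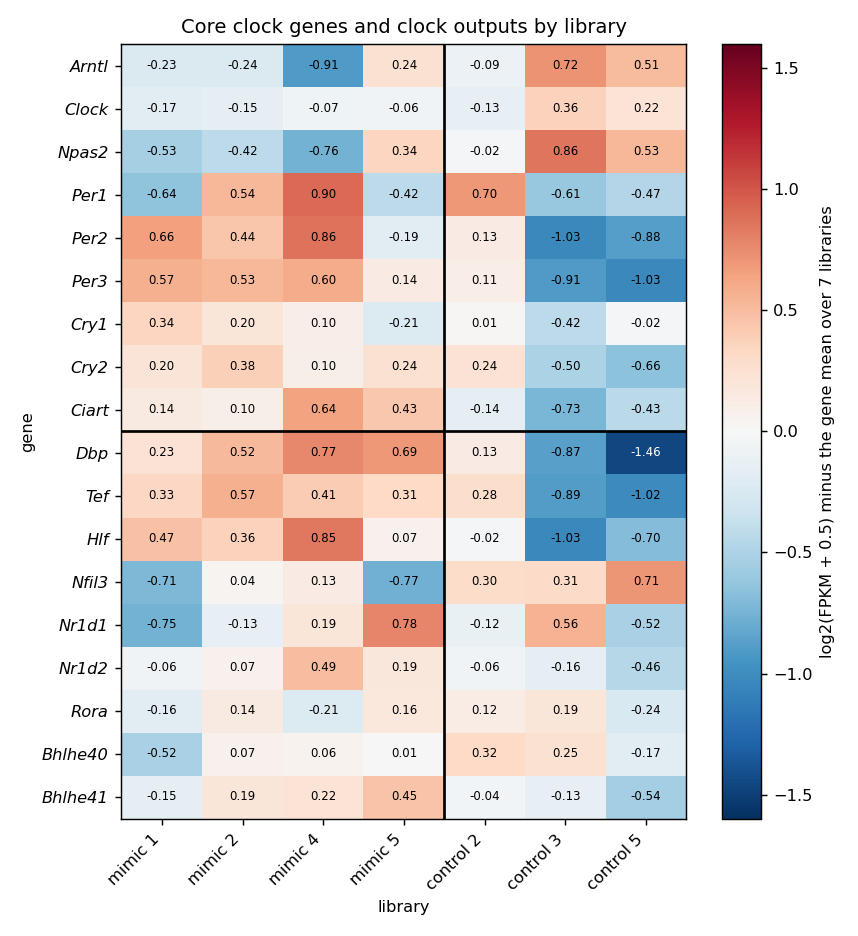
Each cell gives log2(FPKM + 0.5) of a gene in a library minus that gene's mean over the 7 libraries, with mimic ankles left of control ankles and core clock genes above clock outputs. Control replicates 3 and 5 carry the highest values of Arntl (0.72 and 0.51) and the lowest of Per3 (-0.91 and -1.03). Control replicate 2 lies near the gene mean for Arntl (-0.09) and Per3 (0.11), but at 0.70 for Per1.

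Read library by library, the activators stood opposite Per2, Per3, Cry2 and Ciart in control replicates 3 and 5, but Per1 and Cry1 did not share that order. Control replicates 3 and 5 were the 2 highest libraries for Arntl, Clock and Npas2 and the 2 lowest for Per2, Per3, Cry2 and Ciart. Mimic replicate 4 was the lowest for Arntl and Npas2 and the highest for Per1, Per2, Per3 and Ciart. Clock and Cry2 did not share this: Clock was lowest in mimic replicate 1. Cry2 was highest in mimic replicate 2, and mimic replicate 4 was its lowest mimic library. Mimic replicate 5 was the highest mimic library for all 3 activators and the lowest mimic library for Per2, Per3 and Cry1, though not for Cry2 or Ciart. Per1 was lowest in mimic replicate 1, where Arntl also lay below its mean, and Cry1 was higher in control replicate 5 than in mimic replicate 5.

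A ratio within a library does not depend on how that library was scaled. Per3 over Arntl was 5.93, 5.81, 11 and 2.99 in mimic replicates 1, 2, 4 and 5, against 3.80, 0.96 and 1.03 in control replicates 2, 3 and 5, so control replicate 2 lay above mimic replicate 5. Ciart over Arntl was 0.90, 0.87, 2.44 and 0.78 in the same mimic replicates, against 0.63, 0.20 and 0.30 in the same control replicates, with no overlap. Cry2 over Arntl ranged from 2.89 to 6.87 in mimic ankles, against 3.75 in control replicate 2 and 1.17 and 1.22 in control replicates 3 and 5. In each of these ratios control replicates 3 and 5 were the 2 lowest libraries and control replicate 2 lay apart from them.

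**Figure D3:**
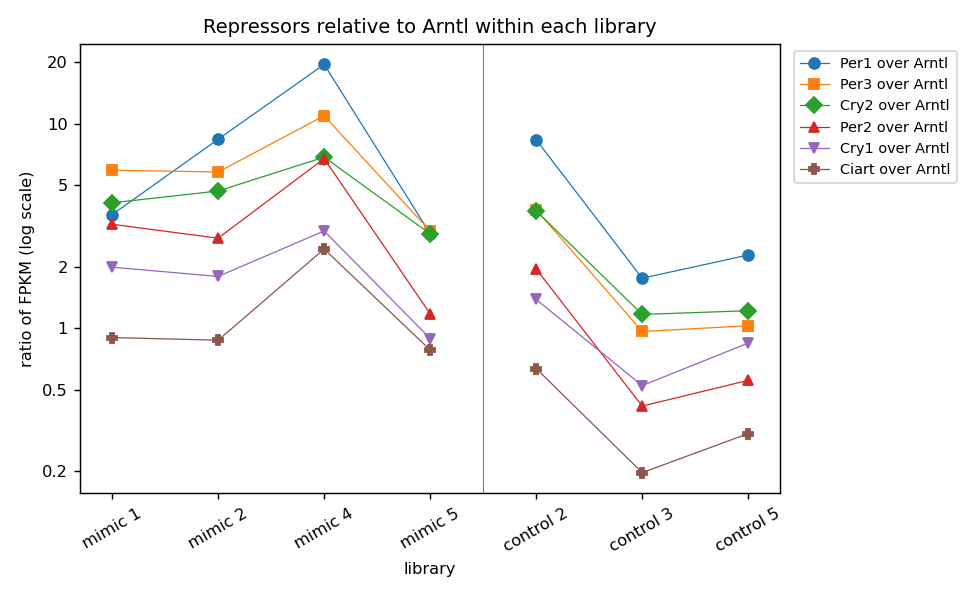
Ratio of the FPKM of each repressor to that of Arntl in every library, on a log axis, with mimic ankles left of control ankles. The lines only guide the eye. Per3 over Arntl lies between 2.99 and 11 in mimic ankles and at 3.80, 0.96 and 1.03 in control replicates 2, 3 and 5.

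The members were also compared by likeness, taken as the root mean square difference between the centred log2 profiles of 2 genes over the 7 libraries. Arntl and Npas2 differed by 0.16 log2 units and Per2 and Per3 by 0.18, the closest pairs among the 9. The mirror image of Clock lay 0.15 from Cry1. The mirror image of Arntl lay 0.26 from Per2, 0.29 from Ciart and 0.33 from Per3. The member nearest to Per1 was Cry2, at 0.54, further than the nearest member of any other gene. The profiles were centred but not scaled, so this measure also depends on how much each gene varied. Clock and Cry1 varied least of the members, so a small distance to a mirror image can arise without a shared pattern. Per1 varied widely, so it lies far from any gene that varied little. The distances were not set against that of a flat profile, so 0.15 and 0.54 alone do not establish likeness. All these profiles come from the same 7 libraries.

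The gene outputs of the loop took the same library order in part. Dbp, a PAR bZIP factor driven through E-boxes, averaged 55.5 ± 8.89 FPKM in mimic ankles and 24.7 ± 14.4 FPKM in control ankles, which is 1.29 on the log2 scale (SE 0.34; adjusted p = 0.176 by limma). Its relatives Tef and Hlf differed by 0.95 (SE 0.29; adjusted p = 0.203 by limma) and 1.02 (SE 0.27; adjusted p = 0.176 by limma) on that scale. Every mimic library lay above every control library for these 3 genes, but by little. For Tef the lowest mimic ankle was at 48.5 FPKM, against 47.2 FPKM in control replicate 2. The same values were 43.8 and 40.8 FPKM for Dbp and 2.05 and 1.89 FPKM for Hlf.

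Nfil3, a repressor that competes for the D-box, averaged 15.0 ± 5.01 FPKM in mimic ankles and 25 ± 4.26 FPKM in control ankles, a log2 fold change of -0.77 (SE 0.25), with every mimic library below every control library. Nr1d2, which encodes REV-ERBβ, a repressor of Arntl, averaged 20.1 ± 3.46 FPKM in mimic ankles and 15.0 ± 2.17 FPKM in control ankles and also did not overlap, though mimic replicate 1 and control replicate 2 nearly met at 16.9 and 16.8 FPKM. Nr1d1, which encodes REV-ERBα, did not separate the groups, at 33.1 ± 14.6 FPKM in mimic ankles and 31.3 ± 12.3 FPKM in control ankles. Its highest libraries were mimic replicate 5 (52.4 FPKM) and control replicate 3 (44.9 FPKM), of which control replicate 3 was also the highest for Arntl.

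Rora, which encodes an activator of Arntl, was at -0.042 (SE 0.15) in log2 fold change, and the E-box repressors Bhlhe40 and Bhlhe41 had -0.23 (SE 0.18) and 0.42 (SE 0.17), all with overlapping groups. Rorb averaged 0.038 ± 0.0098 FPKM in mimic ankles and 0.043 ± 0.028 FPKM in control ankles and was not tested. Of the 10 outputs, 9 were tested, 6 had a higher and 3 a lower mean in mimic ankles, and 0 passed in either direction, at a list median of 0.40 in log2 fold change. Of the 9 tested, 4 had every mimic library above every control library, where 6.48% of all tested genes did. Only 1 had every mimic library below, where 8.84% of all tested genes did.

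The clock protein turnover list, of genes that modify or degrade clock proteins, gave small differences. Of 7 tested, 0 passed, 2 had a higher and 5 a lower mean in mimic ankles, and their median log2 fold change was -0.015. Csnk1d and Csnk1e, the casein kinases that phosphorylate PER, were at -0.015 (SE 0.051) and -0.016 (SE 0.054) in log2 fold change, and both were named after their values were seen. The 2 genes of this list with the smallest p were Csnk1a1, another casein kinase (-0.17, SE 0.073), and Usp2, a deubiquitinase with a daily rhythm (0.75, SE 0.38). Usp2 averaged 9.48 ± 2.96 FPKM in mimic ankles and 5.80 ± 3.58 FPKM in control ankles, with control replicate 2 among the mimic values.

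Cofactors of the loop had a lower mean in mimic ankles for 9 of 10 genes tested, by small amounts, at a list median of -0.070 in log2 fold change, and 0 passed. Wdr5, a histone methyltransferase subunit, and Sfpq, an RNA-binding repressor found with PER, had -0.15 (SE 0.053) and -0.18 (SE 0.076). Among relatives of the activators, 0 of 5 passed, 1 had a higher and 4 a lower mean in mimic ankles, and the median was -0.19. Hif1a, the hypoxia-inducible bHLH-PAS factor, averaged 49.9 ± 7.77 FPKM in mimic ankles and 77.7 ± 17.5 FPKM in control ankles, or -0.62 on the log2 scale (SE 0.18; adjusted p = 0.187 by limma), and Epas1, its close relative, had -0.21 (SE 0.074). Arntl2, the paralogue of Arntl, stood at 1.22 ± 0.19 FPKM in mimic ankles and 0.97 ± 0.051 FPKM in control ankles, with overlapping groups, and was likewise named after its values were seen.

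Because Per1 is also a target of glucocorticoids and of immediate early signals, those lists were set beside it. Of 10 glucocorticoid targets tested, 0 passed, with 3 higher and 7 lower means in mimic ankles and a median of -0.17. Nfkbia, the NF-κB inhibitor, and Mt2, a metallothionein, were at -0.40 (SE 0.088) and -0.93 (SE 0.22) in log2 fold change. Of 13 immediate early genes, 0 passed and 12 had a lower mean in mimic ankles, with a median of -0.44. Ier2 and Junb, which encode early nuclear response proteins, had -0.65 (SE 0.13) and -0.83 (SE 0.17). All 4 of these genes had every mimic library below every control library, but they were named for the smallest p in their lists. Of the 10 glucocorticoid targets 3 did so, and of the 13 immediate early genes 4, where 8.84% of all tested genes did. The other genes of both lists overlapped between the groups, as Per1 did.

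By profile, however, the listed genes nearest to Per1 were Sik1, a kinase induced by cAMP, at 0.25 log2 units, and Tsc22d3, the glucocorticoid-induced leucine zipper gene, at 0.28. Tsc22d3 was also among the listed genes nearest to Per2, at 0.37. Tsc22d3 stood at 48.1, 84.0, 98.6 and 37.5 FPKM in mimic replicates 1, 2, 4 and 5, against 61.0, 33.5 and 32.7 FPKM in control replicates 2, 3 and 5. It shared with Per1 its 3 highest libraries, mimic replicates 4 and 2 and control replicate 2. Fkbp5, another glucocorticoid target, did not share them: its highest libraries were mimic replicate 4 (33.6 FPKM) and control replicate 3 (26.6 FPKM). Per1, Sik1, Tsc22d3 and Fkbp5 were chosen for this comparison after their values were seen.

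**Figure D4:**
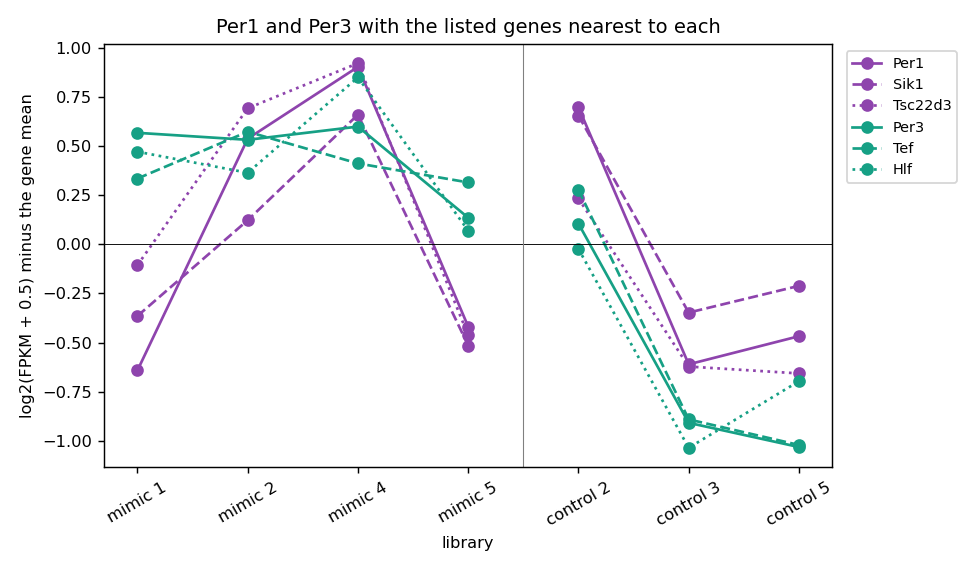
Centred log2(FPKM + 0.5) of Per1 with Sik1 and Tsc22d3 (purple) and of Per3 with Tef and Hlf (green), mimic ankles left of control ankles. The lines only guide the eye. In mimic replicate 1 Per1 lies 0.64 below its mean and Per3 lies 0.57 above its mean.

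Over all tested genes that were neither members nor predicted genes, the 5 nearest to Per3 were Cys1 (0.14 log2 units), Tef (0.15), Mgp (0.18), Hlf (0.19) and Fam180a (0.19). The 5 nearest to its mirror image were Dbx2 (0.21), Socs3 (0.22), Adamts4 (0.22), Avpr1a (0.23) and Snord72 (0.23). Socs3, a feedback inhibitor of cytokine signalling, averaged 52.5 ± 6.01 FPKM in mimic ankles and 109 ± 34.8 FPKM in control ankles, with control replicate 2 at 68.7 FPKM, between the mimic ankles and the other control ankles. Mgp, a matrix inhibitor of calcification, averaged 941 ± 213 FPKM in mimic ankles and 554 ± 216 FPKM in control ankles.

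The 5 genes nearest to Arntl were Mir142 (0.14 log2 units), Cx3cr1 (0.24), Ulbp1 (0.26), Spon2 (0.26) and Tnfrsf13b (0.28), all further than Npas2 except Mir142. The 5 nearest to its mirror image were Mir1839 (0.12), Ccr7 (0.18), Ccl8 (0.20), Hlf (0.22) and Epor (0.23). Mir142 and Mir1839 are microRNA hairpin genes, and Snord72, in the mirror list of Per3, is a small nucleolar RNA gene. FPKM is per length, so in such short genes few reads can give these values. Their places in the lists are therefore less certain. With mimic replicate 4 left out, 0 of the 5 genes nearest to Arntl were among its nearest 5, whereas all 5 of those nearest to Per3 were, although 2 of these 5 were with control replicate 3 left out. The mirror lists moved as much: 0 of the 5 genes mirroring Per3 stayed among the nearest 5 without mimic replicate 5 and 1 without control replicate 5, and 1 of the 5 mirroring Arntl stayed without control replicate 2 and 1 without mimic replicate 4.

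Other tissues of the ankle also varied between the libraries. The 12 skeletal muscle markers summed to between 3285 and 12350 FPKM in mimic ankles and between 1365 and 8131 FPKM in control ankles, and all 12 had a higher mean in mimic ankles. The 7 adipocyte markers summed to between 826 and 1132 FPKM in mimic ankles, against 822, 565 and 504 FPKM in control replicates 2, 3 and 5, and all 7 had a higher mean in mimic ankles. Control replicates 3 and 5, the libraries with the most Arntl and the least Per3, were thus also the lowest in adipocyte markers. They were the highest in the 8 neutrophil markers, which summed to 3408, 2698, 3200 and 1329 FPKM in mimic replicates 1, 2, 4 and 5, against 3107, 6312 and 5317 FPKM in control replicates 2, 3 and 5, and all 8 had a lower mean in mimic ankles. Of 5 erythroid markers tested all 5 had a higher mean in mimic ankles. The 6 measured erythroid markers, of 8 listed, summed to between 77.2 and 555 FPKM in mimic ankles and between 51.5 and 205 FPKM in control ankles. Cartilage markers summed to between 94.5 and 130 FPKM in mimic ankles and between 69.5 and 95.9 FPKM in control ankles. The sums of the bone, endothelial, macrophage and Schwann cell markers overlapped between the groups. As single genes, 1 of 7 bone markers was higher in every mimic library, where 6.48% of all tested genes were. Lower in every mimic library were 2 bone markers and 1 of 6 macrophage markers, where 8.84% of all tested genes were. No measured gene of these lists other than Krt5 and Krt14 was at 0 in any library. The part of these tissues in the clock gene values was not tested.

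Leaving out control replicate 2 moved the differences of 8 of the 9 members further than leaving out any other library, and Cry1 moved furthest without control replicate 3 (0.11). Without control replicate 2 the log2 fold changes were 1.43 for Per3, 0.81 for Cry2, -0.90 for Arntl, -0.40 for Clock, -1.04 for Npas2, 0.63 for Per1, 1.40 for Per2, 0.33 for Cry1 and 0.91 for Ciart. Those of the outputs Dbp, Tef and Hlf were 1.72, 1.36 and 1.30. Leaving out this library put 2 members, Per3 and Cry2, under the limma threshold as higher in mimic ankles, beside 0.857% of all genes, and 0 as lower, beside 1.51% of all genes. The library left out is the control ankle whose values lay within the mimic range for all members but Per3 and Ciart, and the members were chosen on the contrast, so these counts test nothing. Without control replicate 5, the library with keratin transcripts, 0 genes passed, and the differences were -0.60 for Arntl, -0.76 for Npas2, 0.89 for Per2, 0.86 for Per3, 0.37 for Cry2 and 0.76 for Ciart. Those of Clock, Per1 and Cry1 were -0.23, 0.051 and 0.31.

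**Figure D5:**
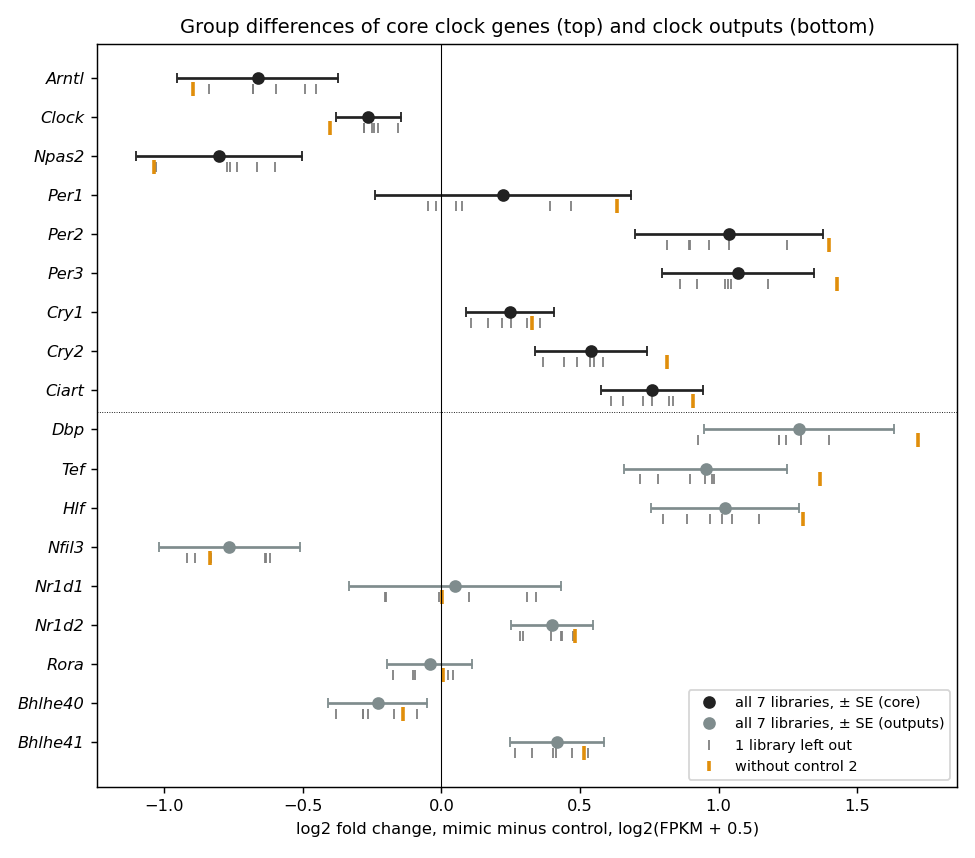
Log2 fold change, mimic minus control, of each core clock gene (black) and clock output (grey) with its SE over all 7 libraries, and the values with 1 library left out as ticks below, without control replicate 2 in orange. The orange tick is the value furthest from 0 for 8 of the 9 core genes, Per3 among them (1.43).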

How the data were processed

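Gene expression was measured by RNA sequencing of 7 dissected ankles, with RNA taken up in QIAzol, per the labels' protocols. The authors deposited 1 FPKM value per gene and library, with the joined exon length of 27179 Entrez genes. Named in the submitters' processing notes, without roles, are the build mm10 and the tools STAR 2.5.2b, DESeq2 1.14.1, bcl2fastq 2.20, Subread and featureCounts. Strand setting and annotation release were not given in the sources used here. Symbols came from a RefSeq table, which matched 25275 genes.

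FPKM times length was a whole multiple of 1 step per library for 100% of values (tolerance 0.01), which gave the assigned reads. FPKM of 1 read per kilobase was 0.0321 to 0.0364, which sets the precision at low levels. No pair of the 7 libraries agreed within sampling noise (the lowest chi-square per gene over 21 pairs was 17.6).

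Groups were compared with limma 3.58.1 (R 4.3.3; eBayes with trend) on log2(FPKM + 0.5) for the 13418 genes that averaged 1 FPKM or more, with Benjamini-Hochberg adjustment over all of them, 2-sided, and without a block. The procedure was checked on simulated data. The members, gene lists, tests and alternatives were chosen with earlier results of these data known. Genes named were the members, the 10 clock outputs reported, the 2 genes of each further clock list with the smallest p, and the 5 genes nearest in profile to Arntl, to Per3 and to their mirror images among 12666 genes; others are marked as chosen after their values were seen. From the clock lists 2 genes are not reported here and are left out of the counts. Tables were handled in Python 3.11.15 with pandas 2.3.3 and plots drawn with matplotlib 3.10.9. Alternatives covered the pseudocount, the filter, the scaling, the variance trend, limma-voom on the recovered reads (added after seeing the data), the replicate number as a block, and leaving out each library.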

Additional observations from a re-analysis of the deposited data

Results flagged for a closer look

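Per3 had a mimic library that stood apart from the other 3. Mimic replicate 5 was at 11.9 FPKM, against 15.8 to 16.6 FPKM in mimic replicates 1, 2 and 4, and this gap was 0.855 of the range of the mimic group, above Dixon's 95% critical value for 4 samples. The same library had the lowest Per2 and Cry1 and the highest Arntl, Clock and Npas2 of the mimic group. Bhlhe40, an E-box repressor, had mimic replicate 1 at 39.3 FPKM, against 56.9 to 59.3 FPKM in the other mimic libraries. That gap was 0.898 of the range on the same log2 scale. The mimic group was examined for 18 genes, and chance alone marks about 1 in 20 groups.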

How the results depend on the processing

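Leaving out single libraries gave between 0 and 318 genes called, between 0 and 2 members and between 0 and 5 genes of the clock lists; the highest counts all came without control replicate 2, which was singled out by its values, so they are no support for a difference, and the cause was not tested. Without the filter on low values 1 gene was called. Other scalings, pseudocounts and limma-voom called 0. Arntl, Clock, Npas2, Per2, Per3, Cry2 and Ciart kept the sign of their difference in every alternative run. Among the outputs the sign of small differences turned: Nr1d1 ranged from -0.20 to 0.34 when single libraries were left out (-0.0087 without mimic replicate 4) and Rora from -0.17 to 0.041. Replicate numbers 2 and 5 occur in both groups, and deviations correlated at 0.54 for number 2 and -0.43 for number 5, so the numbers were not shown to pair the libraries. With the replicate number as a block the difference rests on these 2 numbers: 0 genes and 0 members were called, Per3 was at 0.80, Per2 at 0.50, Arntl at -0.21, Npas2 at -0.30, Cry1 at -0.0075, Per1 at -0.056, Rora at 0.21, Nr1d1 at 0.64 and Hlf at 0.58. The edgeR and DESeq2 alternatives were not run, and limma-voom was run on the recovered reads in their place. Among the members, depth limits Ciart most, with 43 reads in control replicate 3.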
